A study of Mus musculus with 10 samples.

Results

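The ERK feedback genes described here are 10 mouse genes, Dusp4, Dusp5, Dusp6, Spry1, Spry2, Spry4, Spred1, Etv1, Etv4 and Etv5, taken by symbol from a table of 48795 Ensembl genes. All 10 had a row in the table, and all 10 passed the filter on low counts, as 10 of 12859 genes tested. Dusp5 passed narrowly, since it was under 1 CPM (its counts scaled to the library total) in 3 of 10 libraries and a gene under 1 CPM in 4 was discarded.

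The study followed stem and progenitor cells (NSC/NPCs) cultured from the subependymal zone of 10-week-old mice from proliferation to the onset of differentiation, in wild-type (WT) cultures and in cultures labelled p27KO, a constitutive mutant of Cdkn1b (the gene of the cell cycle inhibitor p27) on a C57BL/6J background. RNA was extracted, amplified as cDNA, sequenced and counted per gene. The proliferating stage (PRO) was neurospheres, floating aggregates of dividing cells, kept for 3 DIV with EGF at 20 ng/ml and FGF at 10 ng/ml, and the differentiating stage (DIFF) was cells attached to Matrigel for 2 DIV with FGF and then kept for 24 h without mitogens in 2% FBS, called 2 + 1 DIV. There were 3 WT libraries and 2 p27KO libraries of each stage. PRO and DIFF differed in mitogens, serum, attachment and time together, and these cannot be told apart. In bulk RNA, fewer cells of a type and less RNA per cell cannot be told apart either. Library totals ran from 19190068 to 25291674 counts.

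The targeted gene was examined first. Cdkn1b was at 103, 105 and 112 CPM in the WT PRO libraries and at 114 and 90.7 CPM in those labelled p27KO. At 2 + 1 DIV it was at 207, 205 and 209 CPM in WT and at 140 and 137 CPM in p27KO libraries. Its transcripts were therefore present in every library labelled p27KO, and the genotype is used here as a label only. At 2 + 1 DIV Cdkn1b was lower in p27KO than in WT libraries, with a log2 difference of -0.56. It passed at an adjusted p under 0.05 (edgeR quasi-likelihood test with Benjamini-Hochberg adjustment), where 0.124% of all genes tested were lower. In neurospheres the log2 difference was -0.034 and did not pass. Of its 4552 exon bases 591 are coding, and counts per gene do not show which part was read. The free-text description of the 4 p27KO samples also names WT cells. The p27KO libraries held Xist, the noncoding RNA of the inactive X chromosome, at 2258 to 3595 CPM against at most 2.57 CPM in the WT libraries, while the Y-linked gene Ddx3y was at 51.6 CPM or more in WT and at 0.124 CPM or less in p27KO libraries. Sex and genotype label thus coincided in these libraries and cannot be told apart.

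The labelled cell type was checked against markers. The 10 progenitor markers summed to 8803 to 9850 CPM in PRO and to 6986 to 8602 CPM in DIFF libraries. Vim was the most abundant of them in every PRO library, and Fabp7 or Slc1a3 in each DIFF library. Of these 10 genes 3 rose and 5 fell from PRO to DIFF in WT cells at an adjusted p under 0.05 (edgeR quasi-likelihood test with Benjamini-Hochberg adjustment), and 4 rose and 5 fell in p27KO cells, with Mki67 and Top2a, which mark dividing cells, among those that fell in both. The 7 astrocyte markers, with Aldoc or Slc1a2 the most abundant in each library, summed to 866 to 1232 CPM in PRO and to 2692 to 3223 CPM in DIFF libraries, and 5 of them rose in each genotype. The 9 neuron markers, led by Map2, summed to 1246 to 1857 CPM in PRO and to 1486 to 2137 CPM in DIFF libraries. Map2 made up most of this sum and did not pass the test in either genotype. Dcx, a marker of young neurons, was at 0.834, 0.279 and 3.18 CPM in WT PRO and at 55.9, 14.5 and 35.1 CPM in WT DIFF libraries, with log2 fold changes of 4.61 (standard error 0.90) in WT and 4.33 (standard error 1.07) in p27KO cells, and Tubb3 rose by 1.29 and 1.24. The 7 mural and fibroblast markers, led by Acta2, summed to 1.65 to 3.44 CPM in PRO and to 27.3 to 89.8 CPM in DIFF libraries, and the 5 ependymal markers, led by Foxj1, to 14.7 to 20.2 and 86.2 to 104 CPM. In both lists 1 gene carried the rise, since no mural or fibroblast marker other than Acta2 was above 1.27 CPM (Col1a1) and no ependymal marker other than Foxj1 above 1.74 CPM (Rsph1) in any library. Outside these lists, Pdgfrb, a receptor gene that also marks mural cells, was at 0.295 CPM or less in PRO libraries. In DIFF libraries Pdgfrb was at 2.19, 3.03 and 3.72 CPM (WT) and at 4.44 and 9.49 CPM (p27KO). The filter on low counts left it untested. The 8 oligodendrocyte markers summed to 139 to 286 CPM, with Cnp or Cspg4 the most abundant in each library. Cspg4, which marks precursors, had log2 fold changes of -1.75 (WT) and -1.97 (p27KO) and passed the test in both. The 5 endothelial markers, led by Kdr, of which 2 were at 0 in every library, summed to at most 10.8 CPM. The 7 microglia markers summed to at most 0.622 CPM in any library, with 1 at 0 throughout. The markers singled out here were chosen after their values were seen. The part of the change in cell types in the values that follow was not tested.

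ERK is the last kinase of the cascade that EGF and FGF receptors switch on through RAS, RAF and MEK. Active ERK induces its own brakes: dual-specificity phosphatases of the Dusp family remove the activating phosphates from ERK, and Sprouty and Spred proteins act further up, at the level of RAS and RAF. The PEA3 factors Etv1, Etv4 and Etv5 are ETS-domain transcription factors induced by the same signal, and the transcript levels of all these genes are widely read as a measure of pathway output, with the repressor Capicua (Cic) silencing many of them when ERK is inactive.

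In WT cells, 9 of the 10 genes were DOWN and none was UP at 2 + 1 DIV, where 33.9% of all genes tested were DOWN and 33.5% were UP at an adjusted p under 0.05 (edgeR quasi-likelihood test, Benjamini-Hochberg adjustment over all genes tested, two-sided). In p27KO cells the same 9 genes were DOWN and none was UP, against 30.2% of all genes DOWN and 27.5% UP. Every DIFF library lay below every PRO library for 9 genes in WT cells, against 35.6% of all genes, and for 9 genes in p27KO cells, against 39.8%. The exception in each case was Spred1. The median log2 fold change over the 10 genes was -3.18 in WT and -2.77 in p27KO cells, and over all genes tested it was -0.0019 and -0.029. The sum over the 10 genes was 1913 to 2063 CPM in PRO libraries and 372 to 654 CPM in DIFF libraries, with WT replicate 1 the lowest of the DIFF libraries.

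**Figure D1:**
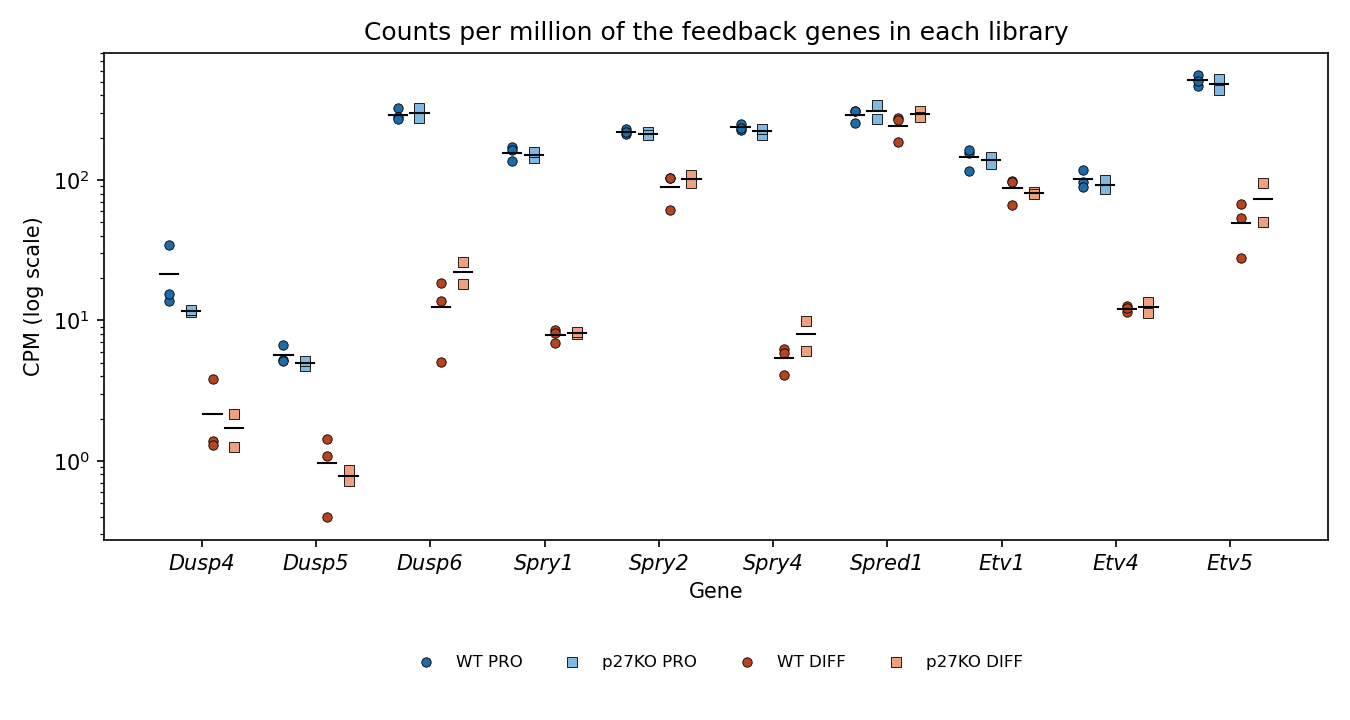
CPM of the 10 genes in each of the 10 libraries, on a log axis. Points are libraries, circles for WT and squares for p27KO, and black bars are group means. PRO and DIFF libraries are apart for 9 genes and overlap for Spred1.

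The phosphatases were Dusp6, Dusp4 and Dusp5. Dusp6 (ENSMUSG00000019960, chr10:99263231-99267489 of GRCm38, plus strand), which encodes a cytoplasmic phosphatase specific for ERK, was at 324, 279 and 270 CPM in WT PRO libraries and at 5.04, 18.4 and 13.8 CPM in WT DIFF libraries. In p27KO libraries it was at 326 and 277 CPM in PRO and at 25.9 and 18.1 CPM in DIFF. All 5 PRO libraries were high and all 5 DIFF libraries low, with the WT replicate 1 the lowest of these. The mean of the WT libraries was 291 ± 28.7 CPM (SD, n = 3) in PRO. At 2 + 1 DIV the WT mean of 12.4 ± 6.81 CPM (SD, n = 3) was 4.27% of that level, and the p27KO mean kept 7.31%. The log2 fold change was -4.54 in WT (standard error 0.40, adjusted p = 1.55e-05, edgeR quasi-likelihood test with Benjamini-Hochberg adjustment) and -3.79 in p27KO cells (standard error 0.47).

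Dusp4 (ENSMUSG00000031530, chr8:34807297-34819894, plus strand), which encodes a nuclear phosphatase of ERK and other MAP kinases, was expressed at a lower level. It was at 13.8, 34.7 and 15.3 CPM in WT PRO libraries and at 1.37, 3.81 and 1.30 CPM in WT DIFF libraries. The p27KO libraries held it at 11.6 and 11.8 CPM in PRO and at 2.14 and 1.26 CPM in DIFF. WT replicate 2 was the highest WT library in both stages. Fitted log2 fold changes were -3.29 (standard error 0.51) in WT and -2.79 (standard error 0.63) in p27KO cells, and the WT value was -2.74 to -4.01 with each library left out in turn.

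Dusp5 (ENSMUSG00000034765, chr19:53529109-53542431, plus strand), which encodes a nuclear ERK phosphatase, rested on few counts. The WT PRO libraries held 129, 131 and 112 counts and the WT DIFF libraries 28, 26 and 10, and the p27KO libraries held 115 and 104 in PRO and 18 and 19 in DIFF. The DIFF libraries were all lower than the PRO libraries. The log2 fold change was -2.59 (standard error 0.36) in WT and -2.67 (standard error 0.45) in p27KO cells. An antisense gene, AC137853.2, overlaps its exons, and since the use of strand in counting is not given in the sources used here, reads of the pair cannot be told apart.

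Of the Sprouty genes, Spry4 fell most. Spry4 (ENSMUSG00000024427, chr18:38586247-38601415, minus strand) encodes an inhibitor of receptor signalling to RAS and RAF. It was at 251, 227 and 236 CPM in WT PRO libraries and at 4.07, 6.22 and 5.89 CPM in WT DIFF libraries. Its p27KO levels were 211 and 232 CPM in PRO and 9.87 and 6.07 CPM in DIFF. PRO and DIFF libraries were far apart in both genotypes, and at 2 + 1 DIV the p27KO libraries overlapped the WT libraries. The mean kept 2.27% of its PRO level in WT and 3.60% in p27KO cells. The WT log2 fold change was -5.46 (standard error 0.21, adjusted p = 6.79e-08, edgeR quasi-likelihood test with Benjamini-Hochberg adjustment), with rank 6 from the lowest among 12859 genes, and the p27KO value was -4.81 (standard error 0.24), with rank 12.

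Spry1 (ENSMUSG00000037211, chr3:37639947-37644598, plus strand), another Sprouty inhibitor, was at 171, 162 and 136 CPM in WT PRO libraries and at 6.87, 8.54 and 8.11 CPM in WT DIFF libraries. The p27KO levels were 144 and 159 CPM in PRO and 7.97 and 8.27 CPM in DIFF. The DIFF libraries of both genotypes were close to each other. This gave log2 fold changes of -4.32 (standard error 0.13) in WT and -4.25 (standard error 0.16) in p27KO cells. Its exons overlap those of Gm42922, annotated on the opposite strand, with which it could share reads.

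Spry2 (ENSMUSG00000022114, chr14:105891947-105896819, minus strand) fell less. It was at 213, 231 and 219 CPM in WT PRO libraries and at 61.4, 104 and 103 CPM in WT DIFF libraries. Among p27KO libraries, Spry2 was at 218 and 208 CPM in PRO and at 108 and 95.5 CPM in DIFF. PRO and DIFF libraries did not overlap, and WT replicate 1 stood below the 4 other DIFF libraries. The mean kept 40.4% of its PRO level in WT and 47.7% in p27KO cells, with log2 fold changes of -1.31 (standard error 0.18) and -1.09 (standard error 0.22).

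Spred1 (ENSMUSG00000027351, chr2:117121374-117182279, plus strand), whose protein brings neurofibromin to the membrane to switch off RAS, did not pass the test in either genotype. It was at 254, 312 and 311 CPM in WT PRO libraries and at 187, 276 and 265 CPM in WT DIFF libraries. Its levels in p27KO libraries were 345 and 271 CPM in PRO and 309 and 281 CPM in DIFF. The stages overlapped in both genotypes. The log2 fold change was -0.28 in WT, with a 95% confidence interval of -0.63 to 0.08, and -0.08 in p27KO cells, with an interval of -0.52 to 0.35 (adjusted p = 0.148 and 0.732, edgeR quasi-likelihood test with Benjamini-Hochberg adjustment). Spred2, a paralog with the same role, went from 156, 156 and 136 CPM in WT PRO to 25.8, 43.6 and 39.3 CPM in WT DIFF libraries, a log2 fold change of -2.05 (standard error 0.19).

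Among the ETS factors, Etv5 (ENSMUSG00000013089, chr16:22381309-22439719, minus strand) was at 464, 558 and 511 CPM in WT PRO libraries and at 27.7, 67.3 and 53.5 CPM in WT DIFF libraries. In p27KO libraries it was at 438 and 520 CPM in PRO and at 95.2 and 50.5 CPM in DIFF. The stages were apart, and the 5 DIFF libraries differed widely among themselves, from WT replicate 1 at the bottom to p27KO replicate 1 at the top. The log2 fold change was -3.37 (standard error 0.35) in WT and -2.74 (standard error 0.42) in p27KO cells.

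Etv4 (ENSMUSG00000017724, chr11:101769742-101785371, minus strand) was at 118, 96.8 and 89.4 CPM in WT PRO libraries and at 11.5, 12.6 and 12.3 CPM in WT DIFF libraries. The p27KO libraries held Etv4 at 85.9 and 99.6 CPM in PRO and at 13.6 and 11.3 CPM in DIFF. Unlike Etv5, its DIFF libraries were close to each other in both genotypes. Its fitted log2 fold changes were -3.07 (standard error 0.14) in WT and -2.92 (standard error 0.17) in p27KO cells.

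Etv1 (ENSMUSG00000004151, chr12:38779380-38870484, plus strand) moved least of the 9 genes that fell. It was at 116, 157 and 164 CPM in WT PRO libraries and at 65.8, 98.6 and 97.0 CPM in WT DIFF libraries. In p27KO libraries it was at 147 and 130 CPM in PRO and at 81.5 and 79.1 CPM in DIFF. The stages did not overlap within a genotype. The mean kept 59.9% of its PRO level in WT and 58.1% in p27KO cells, with log2 fold changes of -0.75 (standard error 0.17, adjusted p = 0.00356) and -0.81 (standard error 0.21, adjusted p = 0.00894, both from the edgeR quasi-likelihood test with Benjamini-Hochberg adjustment). Without p27KO DIFF replicate 2 the p27KO call was lost, with an adjusted p of 0.0508 (edgeR quasi-likelihood test with Benjamini-Hochberg adjustment) and a log2 fold change of -0.78.

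**Figure D2:**
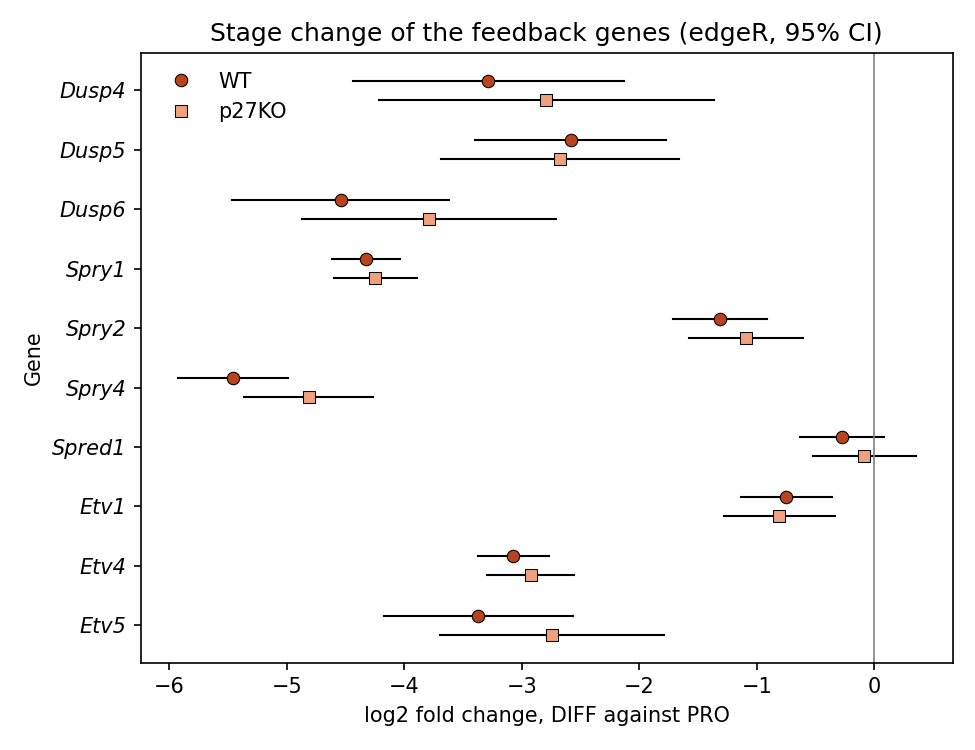
Log2 fold change of each of the 10 genes at 2 + 1 DIV against neurospheres in WT (circles) and p27KO cells (squares), with 95% confidence intervals from edgeR as lines. The intervals include 0 for Spred1 only, and Spry4 has the lowest values, -5.46 and -4.81.

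The order of the genes changed between the stages. Per kilobase of merged exon length, the WT PRO level was highest for Etv5 at 125 ± 11.4 CPM per kilobase (SD, n = 3), followed by Spry2 at 106 ± 4.53 and Dusp6 at 92.9 ± 9.16. Spry1 at 53.8 ± 6.41, Spry4 at 50.04 ± 2.60 and Spred1 at 43.1 ± 4.88 CPM per kilobase came next, and Spry1 and Spry4 did not differ beyond their spread. Etv4 at 32.6 ± 4.74, Etv1 at 10.9 ± 1.96, Dusp4 at 7.76 ± 4.25 and Dusp5 at 2.31 ± 0.357 CPM per kilobase were lowest. At 2 + 1 DIV, Spry2 at 42.8 ± 11.6 and Spred1 at 35.7 ± 7.18 CPM per kilobase (SD, n = 3) led in WT cells and did not differ beyond their spread, while Dusp6 had gone to 3.97 ± 2.17 and Spry4 to 1.13 ± 0.243 CPM per kilobase. The merged exon length of Etv1, 13296 bases, includes exons of all its annotated transcripts, so its level on this scale is low for a given number of counts.

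The libraries of 1 stage did not vary alike. WT replicate 1 was the lowest of the 5 DIFF libraries for 7 of the 10 genes, with a median log2 difference of -0.43 to the mean of the DIFF libraries. The p27KO replicate 1 was the highest DIFF library for 6 genes, with a median difference of 0.24. Among PRO libraries the medians lay between -0.11 and 0.07. Total counts of these DIFF libraries were 19649261 and 25223929, the lowest and the second highest of their stage, and the part of depth in this was not tested.

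The difference between the genotypes in the stage change was tested as an interaction. None of the 10 genes passed the threshold in the edgeR quasi-likelihood test with Benjamini-Hochberg adjustment, 0 had an unadjusted p under 0.05, and DESeq2 gave 0 calls and 1 gene under 0.05 unadjusted, which was Spry4. Of all genes tested, 0.389% passed in edgeR, which is 50 genes, and none passed without WT PRO replicate 2 or 3 or without any 1 of the 4 p27KO libraries. The interaction was 0.75 for Dusp6 (95% confidence interval -0.54 to 2.03), 0.65 for Spry4 (-0.0036 to 1.30) and 0.63 for Etv5 (-0.54 to 1.79). For Spry1 the interval was narrower, -0.34 to 0.49. Over all single left-out libraries the interaction was 0.40 to 1.16 for Dusp6, 0.24 to 0.96 for Spry4 and 0.087 to 1.02 for Etv5.

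In neurospheres, 0 of the 10 genes differed between p27KO and WT libraries in the edgeR quasi-likelihood test with Benjamini-Hochberg adjustment, 0 were under 0.05 unadjusted, and DESeq2 also gave 0 calls. Of all genes tested 0.0156% passed, namely Xist and Eif2s3x, both X-linked, of which Eif2s3x was chosen after its values were seen. With the replicate number as a block, 1 gene passed. Dusp4 and Dusp5 were lower in both p27KO than in all WT libraries, 2 of 10 genes whose groups did not overlap, against 17.8% of all genes. With TMM factors in the CPM the count was 1, since the Dusp5 groups then overlapped. The Dusp4 log2 difference was -0.84 (standard error 0.51), and -0.29 without WT PRO replicate 2, the highest library.

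At 2 + 1 DIV, 0 of the 10 genes passed in the edgeR quasi-likelihood test with Benjamini-Hochberg adjustment and 0 in DESeq2, against 2.04% of all genes in edgeR. Spry4 was under 0.05 unadjusted in both, with a log2 difference of 0.57 (standard error 0.22, adjusted p = 0.267, edgeR quasi-likelihood test with Benjamini-Hochberg adjustment). Dusp6 had a log2 difference of 0.82 (95% confidence interval -0.11 to 1.76) and Etv5 of 0.57 (-0.26 to 1.39). Only for Spred1 did the groups not overlap, with both p27KO libraries above the 3 WT libraries, 1 of 10 genes against 37.3% of all genes. Without WT DIFF replicate 1, the log2 difference of Dusp6 was 0.47. Without p27KO DIFF replicate 1, that of Spry4 was 0.16 and that of Etv5 was 0.025. Over all single left-out libraries the ranges were 0.47 to 1.24 for Dusp6, 0.16 to 0.88 for Spry4 and 0.025 to 0.96 for Etv5.

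Other genes of the pathway were read from lists, whose counts stand against 33.5% of all genes tested that rose and 33.9% that fell in WT cells, and 27.5% and 30.2% in p27KO cells. Of 20 tested genes among the other inhibitors of ERK signalling, 6 rose and 9 fell in WT cells, and 5 rose and 10 fell in p27KO cells. The WT shares of this list were 30% that rose and 45% that fell. Dusp10, a phosphatase of the kinases JNK and p38, had a WT log2 fold change of -3.23, and Dusp1, whose exons overlap those of Ergic1, had one of -2.17. Pea15a, which holds ERK in the cytoplasm, rose by 1.83 and Il17rd, which encodes the inhibitor Sef, rose by 0.92. Of 10 tested genes among the other ERK targets, 9 fell and 1 rose in each genotype. Ccnd1, which encodes cyclin D1, had a WT log2 fold change of -5.89, and the immediate early gene Egr1 one of -4.71, while Epha4 rose by 2.50.

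The receptors and the cascade did not follow. Of 7 tested receptor genes, 4 rose and 0 fell in WT cells, with Fgfr3 at 2.10 and Fgfr2 at 2.05 on the log2 scale, and 3 rose in p27KO cells. Egfr was at 590, 720 and 562 CPM in WT PRO and at 528, 754 and 642 CPM in WT DIFF libraries, with a log2 fold change of 0.03 (standard error 0.17). The value for Fgfr1 was 0.06 (standard error 0.12). Of 20 cascade genes, 6 rose and 4 fell in WT cells, with a median log2 fold change of 0.01, and 5 rose and 4 fell in p27KO cells. The WT shares, 30% and 20%, were both below those of all genes. Braf, a RAF kinase, rose by 0.82 in WT cells and Frs2, an adaptor of FGF receptors, by 0.80, while Hras, a RAS gene, fell by 1.19 and the adaptor gene Shc1 by 0.50. Mapk3, which encodes ERK1, had a WT log2 fold change of 0.32 that did not pass (adjusted p = 0.0562, edgeR quasi-likelihood test with Benjamini-Hochberg adjustment). Of 5 tested ligand genes 3 rose in WT cells, among them Fgf2 by 1.29 and Fgf1 by 1.26, and 1 rose in p27KO cells, which was Fgf2. Fgf1 had a p27KO value of 0.57 that did not pass (adjusted p = 0.169, edgeR quasi-likelihood test with Benjamini-Hochberg adjustment).

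Capicua and its partners were measured as transcripts only, and 1 of these 3 genes rose and none fell in each genotype. Cic was at 177, 155 and 125 CPM in WT PRO and at 167, 147 and 126 CPM in WT DIFF libraries, and its log2 fold change was -0.07 (standard error 0.20). Atxn1, which encodes a binding partner of Capicua, was at 2.50, 3.63 and 4.52 CPM in WT PRO and at 74.9, 69.6 and 65.8 CPM in WT DIFF libraries, a log2 fold change of 4.28 (standard error 0.20) in WT and 4.46 (standard error 0.25) in p27KO cells. Atxn1l, the gene of a related partner, named after its values were seen, was at 76.9, 93.1 and 83.1 CPM in WT PRO and at 81.5, 89.9 and 84.0 CPM in WT DIFF libraries, with log2 fold changes of 0.0036 (standard error 0.092) in WT and 0.090 (standard error 0.11) in p27KO cells that did not pass. Of 11 tested genes among the other ETS factors, 5 fell and 1 rose in WT cells, and 5 fell and 3 rose in p27KO cells. In WT cells, Erf, an ETS repressor that ERK phosphorylates, fell by 1.84 and Ets2 by 1.51, and Elf1 rose by 0.50. Exons of Atxn1, Pea15a, Fgf2, Ccnd1, Braf, Elf1, Fgfr1, Fgfr3, Map2, Cnp, Slc1a2, Dusp1 and Xist also overlap exons of genes on the opposite strand, among them Gmpr for Atxn1 and Dcaf8 for Pea15a, and those of Fgfr2 overlap exons of Ctbp2 on the same strand, so that their reads could be shared.

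The genes with the pattern most like the mean of the 10 genes over the 10 libraries were Atp13a3, Cbr3, Lsm11, Idh3a and Mrpl42, with Pearson correlations of log2 CPM of 0.994 to 0.996. The libraries form 2 clusters by stage, so that any gene with a clear stage difference correlates, and 2252 of 9741 genes reached 0.9. The single closest gene was Spred2 for Etv5, Cycs for Dusp6, Fam160b1 for Dusp4, Igsf21 for Dusp5, Spsb4 for Spry1, Immt for Spry2, Znrf2 for Spry4, Pdha1 for Spred1, Arhgap42 for Etv1 and Eif2ak3 for Etv4, with correlations of 0.969 to 0.999. Of these 10 closest genes, Spred2 alone was in the pathway lists used here. Spred1 stood apart, with correlations of 0.271 to 0.679 with the other 9 genes, whose correlations with each other were 0.770 to 0.998.

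RefSeq promoter windows of 300 bases (GRCm38.p6) were matched for 7 of the 10 genes, namely Dusp5, Dusp6, Spry1, Spry2, Spred1, Etv1 and Etv5, with 9 windows in all. They were searched on both strands for the Capicua octamers TGAATGAA and TGAATGGA and TCAATGAA and TCAATGGA, the ETS motif CCGGAAGT, the AP-1 motif TGACTCA and the CRE motif TGACGTCA. Of 32851 promoter windows of this length, 3.84% held a Capicua octamer, 3.89% the ETS motif, 5.20% the AP-1 motif and 1.79% the CRE motif. Among the genes described here, Dusp6 held 2 Capicua octamers and Spry2 held 1, where they read as the reverse complements TCCATTGA and TTCATTGA, and the other 3 motifs were in none of the 9 windows. Windows with 2 or more octamers were 0.183% of all. A match is a description of letters and not a binding site. Both genes fell at 2 + 1 DIV, as did Dusp5, Spry1, Etv1 and Etv5, whose windows held no octamer. The window of Spred1, which did not pass the test, held none either. A link between octamer and fall was not tested. The 150 bases around each gene start that hold these octamers are shown, with the octamers in capitals as they read on the gene's strand. The Dusp6 stretch is chr10:99263111-99263260 on the plus strand and the Spry2 stretch is chr14:105896790-105896939 on the minus strand, both of GRCm38.p6 and 5′ to 3′, with 120 bases before the gene start. The Dusp6 octamers lie at chr10:99263207-99263214, before the annotated start, and chr10:99263232-99263239, in the first exon, and the Spry2 octamer lies at chr14:105896866-105896873, before its start.
Dusp6: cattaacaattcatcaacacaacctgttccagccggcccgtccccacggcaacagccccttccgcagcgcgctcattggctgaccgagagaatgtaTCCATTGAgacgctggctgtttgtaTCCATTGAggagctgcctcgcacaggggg
Spry2: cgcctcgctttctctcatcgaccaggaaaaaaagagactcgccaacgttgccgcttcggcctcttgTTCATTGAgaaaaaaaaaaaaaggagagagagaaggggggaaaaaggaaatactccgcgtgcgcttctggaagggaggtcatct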

How the data were processed

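RNA-seq reads were mapped by the authors with STAR on the mouse transcriptome of Ensembl (GRCm38/mm10), and RSEM gave an estimated count for each gene, deposited in whole numbers with no normalization. The submitters' processing notes also name FastQC, Trimmomatic, cutadapt and DESeq2. A gene was left out when 4 or more of the 10 libraries had it under 1 CPM, and 12859 genes stayed. A robust quasi-likelihood model of edgeR 4.0.16 (R 4.3.3, limma 3.58.1) with TMM scaling was fitted to the 4 groups, and DESeq2 1.42.0 was an alternative. Two-sided p-values were adjusted by Benjamini-Hochberg over all 12859 genes, and 0.05 was the threshold. CPM values are on the library total, without TMM factors. Symbols, positions and exon lengths are from GENCODE M21. The members and lists were chosen with earlier results of these data known.

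All 10 members were named. From each other pathway list, up to 2 of the called genes that rose most and 2 that fell most in a comparison, at a mean of at least 10 CPM, could be named, besides Cic, Erf, Mapk3, Egfr, Fgfr1, Dusp1 and Spred2, and 1 cascade gene and 1 marker gene are not reported here. The closest genes had a mean of at least 10 CPM. Deviations of same-numbered WT libraries from their group means correlated across genes at 0.248, 0.301 and 0.395, which was read as pairing of the WT libraries by number, although no label says what a number marks. The labels name the replicates as biological. No replicate pair was a copy, with a chi-square per gene of 14.8 to 64.5 between replicates. At these depths the spread between 2 or 3 replicates sets the precision, and for Dusp5 counting error adds to it.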

Additional observations from a re-analysis of the deposited data

Results flagged for a closer look

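Mki67, a marker of dividing cells, was the only gene of the lists used here that passed the interaction test of its stage change between the genotypes, with a log2 interaction of 1.65 (error of the fit 0.27, adjusted p = 0.0392, edgeR quasi-likelihood test with Benjamini-Hochberg adjustment). It was chosen after its values were seen, as was Top2a, another marker of dividing cells, whose log2 interaction of 1.70 (error of the fit 0.32) was as large and missed the threshold (adjusted p = 0.0847, edgeR quasi-likelihood test with Benjamini-Hochberg adjustment). Mki67 was at 118, 67.6 and 107 CPM in WT and at 360 and 313 CPM in p27KO libraries at 2 + 1 DIV, so that both p27KO libraries were above the 3 WT libraries. Top2a was at 85.9, 42.8 and 73.3 CPM in WT and at 256 and 220 CPM in p27KO libraries of that stage. For 37.3% of all genes tested the genotype groups did not overlap at 2 + 1 DIV. Sex coincided with the genotype label in these libraries and cannot be told apart from it. None of the 10 ERK feedback genes passed the interaction test. No gene of the 12859 passed the interaction test without WT PRO replicate 2 or 3 or without any 1 of the 4 p27KO libraries, which leaves Mki67 uncalled there.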

How the results depend on the processing

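The counts of members called, 9 in each stage change and 0 in each of the other 3 comparisons, were the same or within 1 gene under DESeq2 size factors, DESeq2, another filter, no filter, the groups compared alone (not run for the interaction, which needs all 4 groups), thinned counts, the replicate block and each library left out. With an absolute log2 fold change of at least 1 they were 8 and 8, and without p27KO DIFF replicate 2 the p27KO count was 8. No member with a stage change past the threshold changed direction. With TMM factors in the CPM, 1 in place of 2 members had groups that did not overlap in neurospheres, and the cause was not tested. A library left alone in its group was assumed to vary like the other groups.

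Changes of sign were in differences that did not pass the threshold, and the cause was not tested. They are given as the lowest and highest log2 value with each library left out in turn. For the p27KO stage change the range was -0.23 to 0.077 for Spred1. For the interaction the range was -0.049 to 1.22 for Dusp4, -0.48 to 0.29 for Dusp5, -0.012 to 0.17 for Spry1, -0.22 to 0.079 for Etv1 and -0.0017 to 0.28 for Etv4. For p27KO against WT in neurospheres the range was -0.025 to 0.17 for Dusp6, -0.11 to 0.071 for Spry1, -0.050 to 0.0043 for Spry2, -0.17 to 0.015 for Spry4, -0.059 to 0.25 for Spred1, -0.19 to 0.050 for Etv1, -0.23 to 0.027 for Etv4 and -0.21 to 0.076 for Etv5. For p27KO against WT at 2 + 1 DIV the range was -0.79 to 0.38 for Dusp4, -0.66 to 0.11 for Dusp5, -0.015 to 0.14 for Spry1, -0.0020 to 0.34 for Spry2, -0.26 to 0.0090 for Etv1 and -0.10 to 0.18 for Etv4.

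With the replicate number as a block (replicate block), 9 members were called in each stage change and 0 in the other comparisons, so that it changed no call of a member. This block gave same-numbered WT and p27KO libraries a shared effect, although no label links them. The sign turned in the p27KO against WT difference for Spry2 in neurospheres (0.025), Etv1 in neurospheres (0.060) and Etv4 at 2 + 1 DIV (-0.0022). Same-numbered p27KO libraries deviated in opposite directions (correlation -0.138 across genes), and the replicate block with the p27KO numbers crossed, chosen after seeing the data, gave the same counts of 9, 9, 0, 0 and 0, with the sign turned for Spry2 in neurospheres (0.029), Etv1 in neurospheres (0.063) and Etv4 at 2 + 1 DIV (-0.0025). Over all genes tested, the calls in the interaction were 50, with 157 in DESeq2, 79 with no filter, 88 and 82 without WT DIFF replicate 1 and 2, 13 without WT PRO replicate 1, and 0 without WT PRO replicate 2 or 3 or any 1 of the 4 p27KO libraries. In neurospheres they were 2, with 40 in DESeq2, 9 with the other filter, 14 with no filter, 1 with the groups alone, 1 with either block, 4 without WT PRO replicate 1 or p27KO PRO replicate 2, and 1 without any 1 of the 8 other libraries. At 2 + 1 DIV they were 262, with 631 in DESeq2, 39 with the groups alone, 524 with the crossed block, and 99 and 126 without p27KO DIFF replicate 1 and 2. Depth limits Dusp5 most, with 10 to 28 counts in DIFF libraries.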
